A study of Mus musculus with 8 samples.

Results

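The oligoadenylate synthetases (OAS proteins) of the mouse were followed across 8 RNA libraries of the macrophage-like line RAW264.7. The 8 genes Oas1a, Oas1b, Oas1c, Oas1g, Oas2, Oas3, Oasl1 and Oasl2 were taken by symbol from the 42454 rows of the deposited count table, and all 8 were found. Each of them also passed the count filter that left 11081 genes for testing.

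OAS proteins bind double-stranded RNA, a product of viral replication, and then join ATP into short chains linked 2'-5', called 2-5A. The 2-5A chains are second messengers of the antiviral response, which leads to RNA decay and a stop of translation in the infected cell. Most OAS genes are induced by type I interferon through the transcription factor complex ISGF3, which binds an interferon-stimulated response element (ISRE), and macrophages are a cell type in which this arm is strongly inducible. The mouse has many copies of Oas1, and some members of the family have lost the synthetase activity.

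The labels cross a stimulus with a compound in 4 groups of 2 libraries. The group mock received the solvent DMSO, and the group TubB received Tubuloside B, a plant phenylethanoid glycoside. Cells of the group LPS_IFNg were given bacterial lipopolysaccharide (LPS) at 10 ng/ml and interferon-gamma (IFN-γ) at 20 ng/ml over 24 h, and those of LPS_IFNg_TubB had both the stimulus and Tubuloside B. Neither a dose for Tubuloside B nor a time for mock and TubB stands in the labels. All 4 groups are 1 tumour-derived line, and nothing in the labels says that replicates were separate cultures, so p-values measure only the spread between these samples, which may be technical.

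The stimulus markers went against the labels. Nos2, the inducible nitric oxide synthase, stood at 176 and 155 CPM (the count scaled to a library size common to all samples) in the libraries labelled mock and at 199 and 166 in those labelled LPS_IFNg, but at 6964 and 5762 in those labelled TubB and 7429 and 6156 in those labelled LPS_IFNg_TubB. Il6, an inflammatory cytokine, had 613 counts in the group labelled TubB and 568 in that labelled LPS_IFNg_TubB, but 1 in mock and 0 in LPS_IFNg. Of 10 such markers, 10 were called higher with Tubuloside B in the label, against 31.7% of all genes tested. None was called between LPS_IFNg and mock, where 0 of all 11081 genes tested were called. The conflict runs through whole groups, so no library could be set aside to remove it. In these markers the libraries labelled TubB resemble those labelled LPS_IFNg_TubB, and those labelled LPS_IFNg resemble mock. Whether the labels TubB and LPS_IFNg were exchanged was not tested; if they were, each difference given here for the Tubuloside B label would be one for the stimulus. Every comparison is therefore one between libraries so labelled.

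Library totals lay between 4767894 and 8413834 counts. Of 10 macrophage markers 8 were tested. With Tubuloside B in the label, 5 were called higher and 1 lower (31.7% and 31.5% of all genes tested). Their summed level was 7904 to 8177 CPM in the libraries labelled mock or LPS_IFNg and 9146 to 9688 CPM in the other 4. Mertk had no counts. Markers of T cells, B cells, fibroblasts and epithelial cells summed to at most 2.93 CPM in any library, and none passed the filter. The 6 neutrophil markers summed to 6.46 to 7.54 CPM in mock and LPS_IFNg and to 37.6 to 57.1 CPM in TubB and LPS_IFNg_TubB, with S100a9, Ly6g and Mpo without counts. Dendritic cell markers summed to 40.4 to 54.5 CPM over all groups, with Flt3 and Siglech without counts. Of the 2 tested, 1 was called higher and 1 lower. The part of these shifts in the results was not tested. In bulk RNA a change in the number of cells of a type and one in RNA per cell cannot be told apart.

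Of the 8 genes, 7 were higher in the libraries labelled TubB than in mock, and the same 7 were higher in LPS_IFNg_TubB than in LPS_IFNg; Oas1c was the exception. In the first comparison 26.3% of all tested genes were called higher and in the second 26.2%, by edgeR's quasi-likelihood test at an adjusted p under 0.05. The rises ran from 2.79-fold (Oas1g) to 257-fold (Oasl2, as a ratio of counts) in the first comparison. Over both comparisons together, 4 libraries labelled with Tubuloside B against 4 without, the median log2 fold change of the 8 genes was 2.47, against -0.02 for all genes tested, of which 31.7% were called higher. For the same 7, each of the 4 libraries labelled with the compound lay above each of the other 4, as in 29.7% of all genes tested. When the test asked for a change beyond 2-fold, 4 of the 8 genes were called in the first comparison and 5 in the second. Of all 11081 genes tested, 832 and 835 were then called either way. Over both comparisons together, 7 OAS genes and 1021 of all genes tested were called beyond 2-fold.

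**Figure D1:**
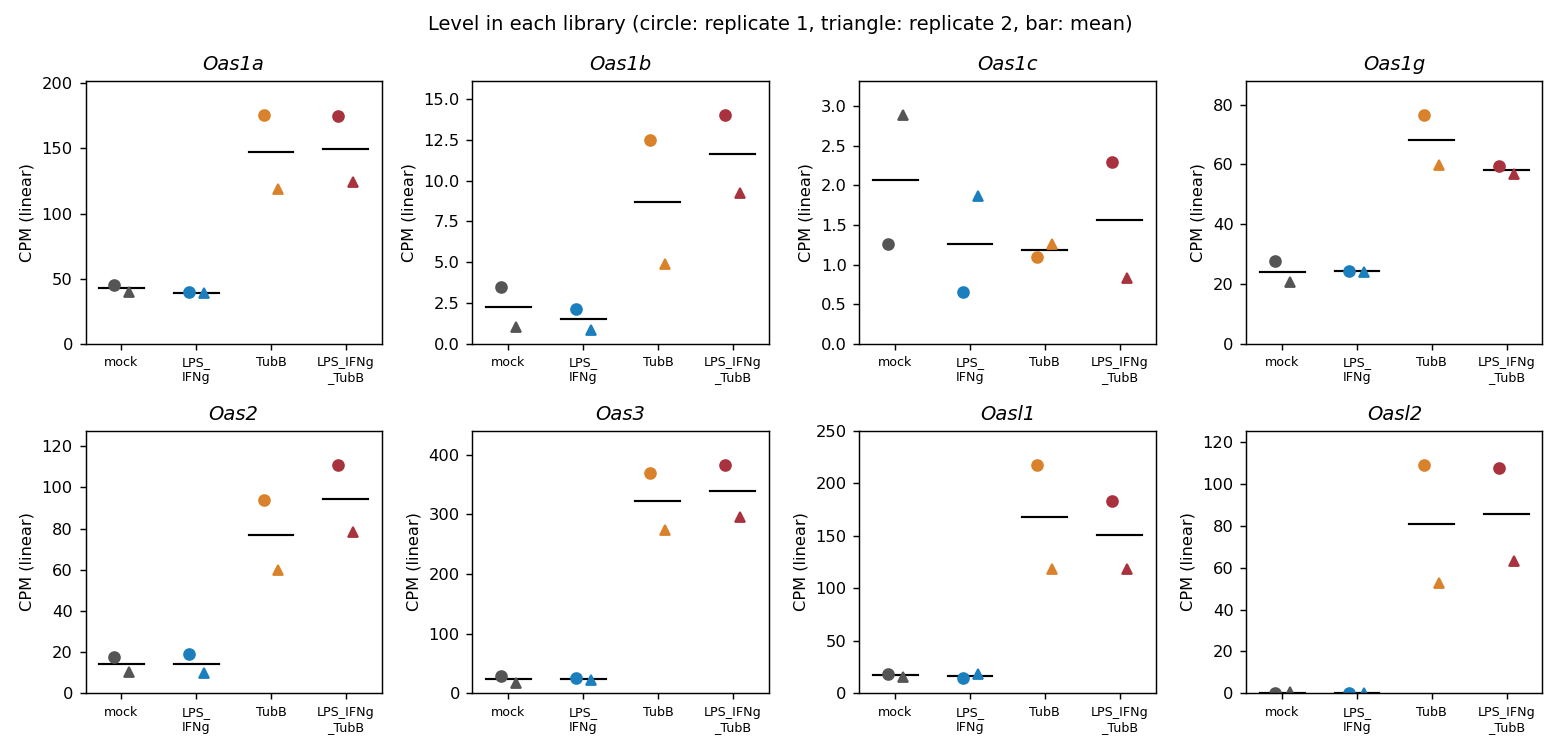
Level of each OAS gene in every library, in CPM on a linear axis that starts at 0, by labelled group. Circles are replicate 1, triangles replicate 2 and bars the mean. For 7 genes the 4 libraries labelled TubB or LPS_IFNg_TubB lie above the other 4, while Oas1c overlaps.

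Oas1a and Oas1g encode the Oas1 enzymes of the mouse with synthetase activity. Oas1a (chromosome 5, 120896256 to 120907544, minus strand, GRCm38.p6) had 45.1 and 39.8 CPM in mock, 39.8 and 38.7 in LPS_IFNg, 175 and 119 in TubB and 175 and 124 in LPS_IFNg_TubB. The 4 low libraries span a narrow band and the lowest of the 4 high ones is far above it. Its log2 fold change was 1.77 ± 0.26 (SE; adjusted p = 0.00178) from mock to TubB, or 3.42-fold, and 1.92 ± 0.26 (adjusted p = 0.00146) from LPS_IFNg to LPS_IFNg_TubB.

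Oas1g (chromosome 5, 120876142 to 120887613, minus strand) had 27.6 and 20.5 CPM in mock, 24.4 and 24.0 in LPS_IFNg, 76.4 and 59.7 in TubB and 59.5 and 56.8 in LPS_IFNg_TubB. The groups with and without Tubuloside B in the label did not overlap. The rise was 1.48 ± 0.15 on the log2 scale (adjusted p = 1.19e-09) in the first comparison and 1.26 ± 0.15 (adjusted p = 5.64e-08) in the second, the smallest of the 7 in both. The 2 genes are near-copies: 40.9% of the 100-base windows of the Oas1a transcript also occur in Oas1g, and 31.25% of those of Oas1g in Oas1a. Counting used no option for multi-mapping reads, so reads that fit both genes equally were left out of both. The levels of both may be too low, and the ratio between them is uncertain. The ratio of Oas1a to Oas1g counts was 1.63 and 1.94 in mock, 1.64 and 1.62 in LPS_IFNg, 2.30 and 1.99 in TubB, and 2.95 and 2.18 in LPS_IFNg_TubB.

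The stretches before these start sites were read from RefSeq (GRCm38.p6), whose promoter table held 6 of the 8 genes. They are shown because the start-proximal bases carry matches to the ISRE core (GAAANNGAAA, either strand), which 3.44% of all 32851 windows of 300 bases hold (250 bases before and 50 from the start). Capitals mark the matches, and each stretch ends at the base before the RefSeq start site. That start can differ from the outermost base of the gene in the count table: the last 19 bases of the Oas1a stretch, which hold most of its capitals, the last 25 of the Oas3 stretch and the last 8 of the Oasl2 stretch lie inside the gene as counted, and none of the Oas1g stretch does.
Oas1a, chr5:120907526-120907625, minus strand: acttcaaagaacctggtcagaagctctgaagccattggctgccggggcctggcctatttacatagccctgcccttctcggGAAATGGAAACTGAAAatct
Oas1g, chr5:120887614-120887713, minus strand: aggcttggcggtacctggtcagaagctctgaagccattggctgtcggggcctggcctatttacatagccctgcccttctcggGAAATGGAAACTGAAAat
Both hold 2 overlapping matches that form the same run of 16 bases, at -20 to -5 from the start in Oas1a and -18 to -3 in Oas1g. Over 250 upstream bases the pair was 82.8% identical, while the other pairs of family members in the table were 41.2% to 48.2% identical. The Oas1a window also held 1 match to the IFN-γ-activated site pattern (TTCNNNGAA; 8.30% of all windows), at -98 to -90, and no other family member in the table did. A match is a description of letters, not of a site in use.

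Oas1b is the flavivirus resistance gene, which many laboratory strains carry in a truncated form. Oas1b (chromosome 5, 120812635 to 120824163, plus strand) had 3.49 and 1.01 CPM in mock, 2.14 and 0.849 in LPS_IFNg, 12.5 and 4.90 in TubB and 14.003 and 9.25 in LPS_IFNg_TubB. Libraries with and without Tubuloside B in the label did not overlap, and replicate 1 was the higher library in every group. Its log2 fold change was 1.85 ± 0.58 (adjusted p = 0.0173) in the first comparison and 2.91 ± 0.62 (adjusted p = 0.00173) in the second, where it stood at 3.72 without LPS_IFNg replicate 1. The first call did not hold in DESeq2 (adjusted p = 0.0518), nor without mock replicate 2 (1.23, adjusted p = 0.0833) and without TubB replicate 1 (1.11, adjusted p = 0.0794); it was 2.999 without mock replicate 1 and 2.47 without TubB replicate 2.

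Oas1c, an Oas1 copy best known from the ovary, was the family member not called in either comparison. Oas1c (chromosome 5, 120800194 to 120812540, minus strand) had 1.26 and 2.88 CPM in mock, 0.658 and 1.87 in LPS_IFNg, 1.10 and 1.26 in TubB and 2.30 and 0.826 in LPS_IFNg_TubB, and the groups overlapped throughout. These values rest on 74 counts over 8 libraries. The log2 difference was -0.78 ± 0.67 (95% interval -2.15 to 0.59; adjusted p = 0.347) from mock to TubB and 0.22 ± 0.74 (-1.30 to 1.75; adjusted p = 0.822) in the second comparison. The first value rests on 1 library, as it was -0.08 without mock replicate 2, and with 1 library left out the second ran from -0.59 to 1.14.

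Oas1c and Oas1b lie back to back, with 94 bases between their outermost annotated bases, shown because a called gene and an uncalled one face each other across it. It reads on the Oas1b strand, from Oas1c towards Oas1b:
Oas1c to Oas1b, chr5:120812541-120812634, plus strand: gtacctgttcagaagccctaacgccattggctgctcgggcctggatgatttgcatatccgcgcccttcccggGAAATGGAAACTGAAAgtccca
The capitals are again the run of 16 bases seen before Oas1a and Oas1g, in the same orientation relative to Oas1b and ending 6 bases before its first annotated base. For Oas1c the run lies on the other strand, at -114 to -99 from its RefSeq start. Of the 32851 windows 7 hold it on either strand (0.0213%), and they belong to Oas1a, Oas1c, Oas1g, Apol9a and Apol9b. The run was picked out after the Oas1a match was seen.

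Oas2 encodes an enzyme of tandem OAS units that makes longer 2-5A chains. Oas2 (chromosome 5, 120730333 to 120749886, minus strand) had 17.6 and 10.5 CPM in mock, 19.1 and 9.85 in LPS_IFNg, 93.8 and 59.7 in TubB and 111 and 78.2 in LPS_IFNg_TubB. All 4 libraries labelled with the compound were above the other 4, with replicate 1 higher in each group. The log2 fold change was 2.42 ± 0.46 (adjusted p = 0.0115) in the first comparison and 2.69 ± 0.47 (adjusted p = 0.00825) in the second. Without mock replicate 2 the first was 2.10 (adjusted p = 0.0583).

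Oas3 encodes the largest OAS protein, with the highest affinity for long double-stranded RNA. Oas3 (chromosome 5, 120753098 to 120777684, minus strand) had 29.3 and 18.03 CPM in mock, 25.3 and 22.9 in LPS_IFNg, 369 and 274 in TubB and 382 and 295 in LPS_IFNg_TubB. The low libraries lie within 1 band and the 4 high ones far above it. Its log2 fold change was 3.75 ± 0.31 (adjusted p = 0.000414) and 3.80 ± 0.31 (adjusted p = 0.000424), or 13.5-fold and 13.97-fold. Its upstream stretch, printed because it also holds an ISRE core match, has it at -75 to -66, farther from the start than in Oas1a and Oas1g:
Oas3, chr5:120777660-120777759, minus strand: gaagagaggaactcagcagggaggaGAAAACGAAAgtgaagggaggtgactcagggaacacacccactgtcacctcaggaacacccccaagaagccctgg

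The OAS-like genes differ in activity. Oasl1 lacks synthetase activity and is known to hold back translation of Irf7 mRNA, and Oasl2 has kept the activity; both proteins end in ubiquitin-like domains. Oasl1 (chromosome 5, 114923143 to 114937911, plus strand) had 18.4 and 15.9 CPM in mock, 14.8 and 18.01 in LPS_IFNg, 218 and 119 in TubB and 183 and 119 in LPS_IFNg_TubB. The high libraries stand well apart from the low ones, and within them replicate 1 exceeds replicate 2. The log2 fold change was 3.27 ± 0.46 (adjusted p = 0.00439) in the first comparison and 3.19 ± 0.48 (adjusted p = 0.00551) in the second.

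Oasl2 went from next to no reads in the low libraries to a clear signal in the high ones. Oasl2 (chromosome 5, 114896926 to 114912245, plus strand) had 1 and 3 counts in mock, 2 and 0 in LPS_IFNg, 496 and 418 in TubB and 468 and 383 in LPS_IFNg_TubB, which is 109 and 52.5 CPM in TubB and 107 and 63.3 CPM in LPS_IFNg_TubB. Scaled to library size, TubB was 257-fold above mock (exact 95% counting interval 100.2 to 947) and LPS_IFNg_TubB was 489-fold above LPS_IFNg (135 to 4044). The first ratio was 169 without mock replicate 1 and 523 without mock replicate 2, and the second was 248 without LPS_IFNg replicate 2. Without LPS_IFNg replicate 1 LPS_IFNg had 0 counts left, and a floor of 3 counts for that group put the difference at 160-fold or more. Both were called by edgeR (adjusted p = 0.00305 and 0.00324) but not by limma-voom (adjusted p = 0.112 and 0.0926). The edgeR 95% intervals, which also hold the spread between replicates, were 5.24 to 10.8 and 5.72 to 11.9 on the log2 scale.

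The stretch before Oasl2 is shown because this gene has the widest range of the family and no ISRE core, nor a TTCNNNGAA match, in its RefSeq window:
Oasl2, chr5:114896834-114896933, plus strand: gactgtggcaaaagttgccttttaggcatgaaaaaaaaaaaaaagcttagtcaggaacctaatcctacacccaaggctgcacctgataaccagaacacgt
The Oasl1 window likewise held neither motif. It held 4 matches, 3 of them overlapping, to an NF-κB pattern (GGGNNNNNCC, either strand), which 50.8% of all windows hold; its RefSeq start lies inside the gene as counted. Oas1a, Oas1g and Oas3 held 1 match to this pattern each and Oas1c 2, while the Oasl2 window had none. These letters describe the 300-base window only.

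Abce1, a ribosome recycling factor first described as an inhibitor in the 2-5A pathway, was slightly lower with Tubuloside B in the label. It had 348 and 314 CPM in mock, 326 and 329 in LPS_IFNg, 236 and 271 in TubB and 239 and 254 in LPS_IFNg_TubB. The 4 libraries labelled with the compound lay below the other 4, a log2 fold change of -0.40 ± 0.06 over both comparisons (adjusted p = 3.56e-07; 31.5% of tested genes were called lower). The change was not called when a change beyond 2-fold was asked for. The gene of the 2-5A phosphodiesterase, Pde12, is listed at 0 counts in every library, and of the other Oas1 copies Oas1d had 2 counts, Oas1e 0, Oas1f 1 and Oas1h 32 in all. Of those 32 counts of Oas1h, 5 were in mock, 4 in LPS_IFNg, 10 in TubB and 13 in LPS_IFNg_TubB, too few for the filter.

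**Figure D2:**
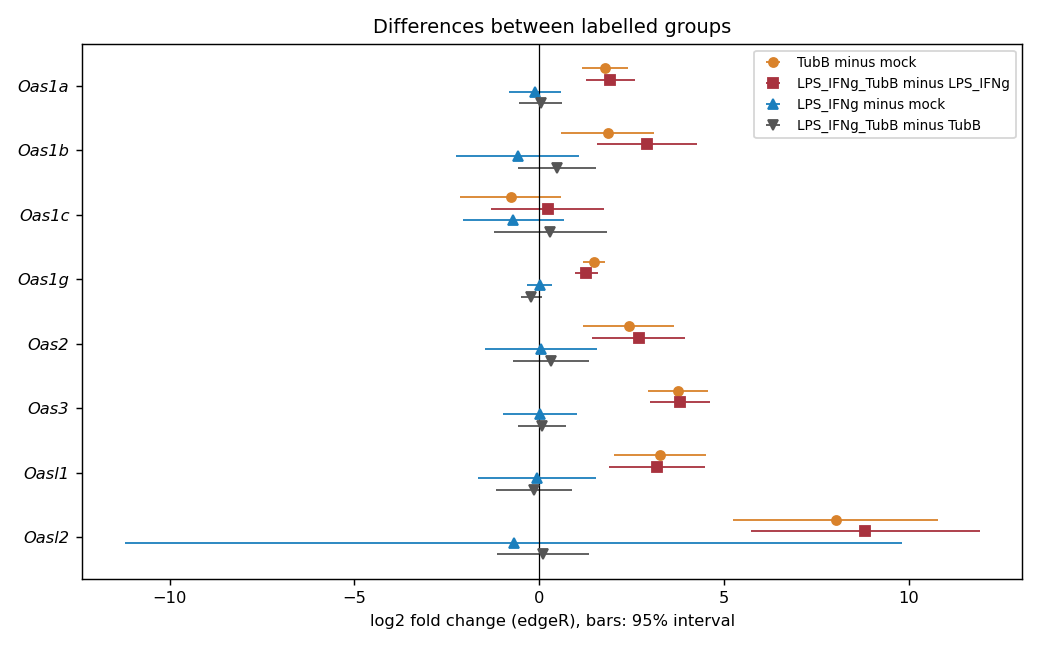
Log2 fold change of each gene in 4 comparisons of labelled groups, with 95% intervals from edgeR. The comparisons that add Tubuloside B to the label (circles and squares) lie right of 0 for 7 genes, and those that add LPS and IFN-γ to the label (triangles) include 0 for all 8; the width for Oasl2 between LPS_IFNg and mock reflects 2 against 4 counts.

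None of these genes was called for the stimulus label. Between LPS_IFNg and mock, and between LPS_IFNg_TubB and TubB, 0 of the 8 were called by edgeR, 0 had an unadjusted p under 0.05, and 0 were called by DESeq2 or limma-voom. Over all 11081 genes 0 (0%) were called in either comparison, with 247 and 269 at an unadjusted p under 0.05. The log2 differences of the 8 genes ran from -0.71 (Oas1c) to 0.04 (Oas2) in the first and from -0.21 (Oas1g) to 0.48 (Oas1b) in the second. For Oas3 the 95% intervals were -0.98 to 1.03 and -0.57 to 0.72, and for Oas1g -0.33 to 0.34 and -0.50 to 0.07. A missing call leaves differences of these sizes possible.

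The difference between the 2 effects of the Tubuloside B label was tested as an interaction. No member was called or had an unadjusted p under 0.05 (277 of all genes did, and 0 were called). The largest member values were 1.06 ± 0.90 for Oas1b, 1.003 ± 1.003 for Oas1c and 0.80 ± 3.96 for Oasl2, all genes with low counts in some groups. Oas1a (0.14 ± 0.37), Oas2 (0.27 ± 0.69), Oas3 (0.05 ± 0.45), Oasl1 (-0.08 ± 0.70) and Oas1g (-0.22 ± 0.21) were closer to 0. For Oas1b the interval of the difference, -0.90 to 3.03, is wide.

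Replicate 1 was above replicate 2 in 6 of the 8 genes in mock, 6 in LPS_IFNg, 7 in TubB and 8 in LPS_IFNg_TubB. Over all tested genes the share was 48.3% to 50.7% in each group. Oas1c was below in mock, LPS_IFNg and TubB, and Oasl2 in mock and Oasl1 in LPS_IFNg were the others. In TubB the ratio was widest for Oas1b, and the levels of Oas1a, Oas2, Oas3, Oasl1 and Oasl2 were all higher in replicate 1. The neutrophil marker sum also differed between the TubB libraries, at 57.1 CPM in replicate 1 and 37.6 CPM in replicate 2. Its part in these replicate differences was not tested.

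The make-up of the family was compared per length, as CPM per kilobase of summed exon length. Reads that fit both Oas1a and Oas1g equally were left out, while the full exon length of both was used. Their levels and shares may therefore be too low beside those of the other genes. The summed level of the 8 genes was 49.6 in mock, 47.1 in LPS_IFNg, 288 in TubB and 287 in LPS_IFNg_TubB. In mock the order was Oas1a (21.1 ± 1.85, SD, n = 2), Oas1g (11.6 ± 2.44), Oasl1 (7.46 ± 0.786), Oas3 (4.82 ± 1.62), Oas2, Oas1b, Oas1c and Oasl2. Libraries of neighbours in this order were apart except for Oas2 with Oas1b and Oas1b with Oas1c. LPS_IFNg had the same order, with only Oas1b and Oas1c overlapping.

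In TubB, Oasl1 (73.2 ± 30.5), Oas1a (73.1 ± 20.0) and Oas3 (65.4 ± 13.7) led with overlapping libraries, followed by Oas1g (32.9 ± 5.72) and Oasl2 (25.7 ± 12.7), which also overlapped, and then Oas2, Oas1b and Oas1c, each apart from the next. LPS_IFNg_TubB led with the same 3 genes in the order Oas1a, Oas3, Oasl1, again overlapping. From mock to TubB the share of Oas1a in the family sum went from 42.6% to 25.4%, that of Oas3 from 9.72% to 22.7%, that of Oasl1 from 15.1% to 25.4% and that of Oasl2 from 0.184% to 8.91%. In single libraries Oas1a held 40.6% to 45.0% in the low groups and 24.8% to 26.2% in the high ones, with no overlap. Oas3 held 8.35% to 10.8% and 21.4% to 25.1%.

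**Figure D3:**
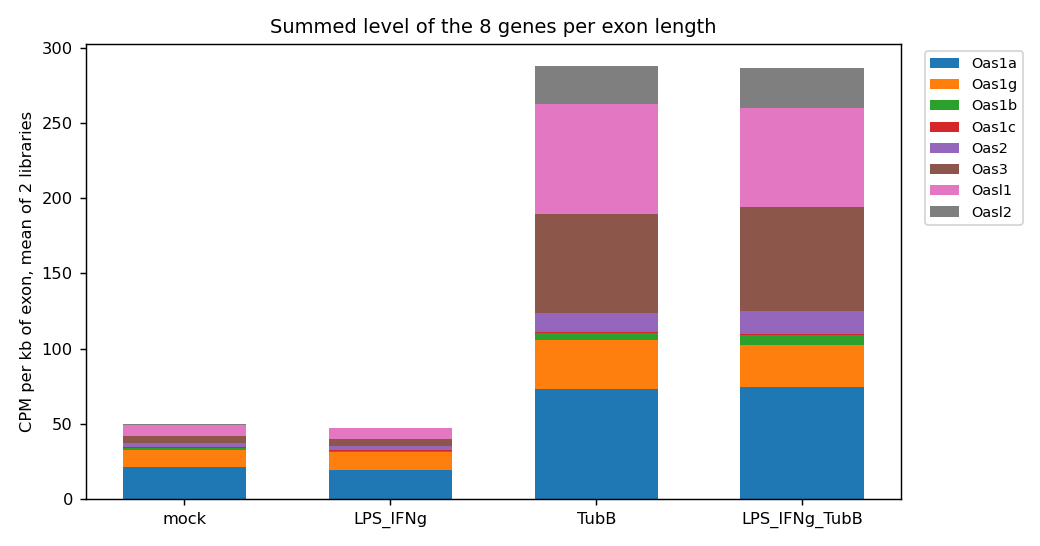
Summed level of the 8 genes per labelled group, in CPM per kilobase of exon (mean of 2 libraries, linear axis from 0), stacked by gene. The bars of TubB (288) and LPS_IFNg_TubB (287) are taller than those of mock (49.6) and LPS_IFNg (47.1), and the Oas3, Oasl1 and Oasl2 parts take a wider share of them.

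All 8 genes lie on chromosome 5 in 2 clusters. The Oas1, Oas2 and Oas3 cluster spans 191 kb (120730333 to 120921648), and the OAS-like cluster spans 41.0 kb (114896926 to 114937911). Within the first, Oas2, Oas3, Oas1b, Oas1g and Oas1a rose, Oas1c between Oas3 and Oas1b was not called, and Oas1d, Oas1e, Oas1f and Oas1h had too few counts to test. The nearest tested genes on either side, over both comparisons, were lower for Ddx54 (-0.18 ± 0.06) and Rasal1 (-0.90 ± 0.19), higher for Rph3a (1.37 ± 0.49, on 73 counts) and not called for Ptpn11 (-0.06 ± 0.06). Around the OAS-like cluster 4 of 4 neighbours were not called, with values of -0.03 to 0.21, while Gm13822, an unnamed model between Oasl2 and Oasl1 on the opposite strand, was higher (1.59 ± 0.53, on 61 counts). The library kit did not mark strand, so counts of overlapping or antisense models cannot be told apart.

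**Figure D4:**
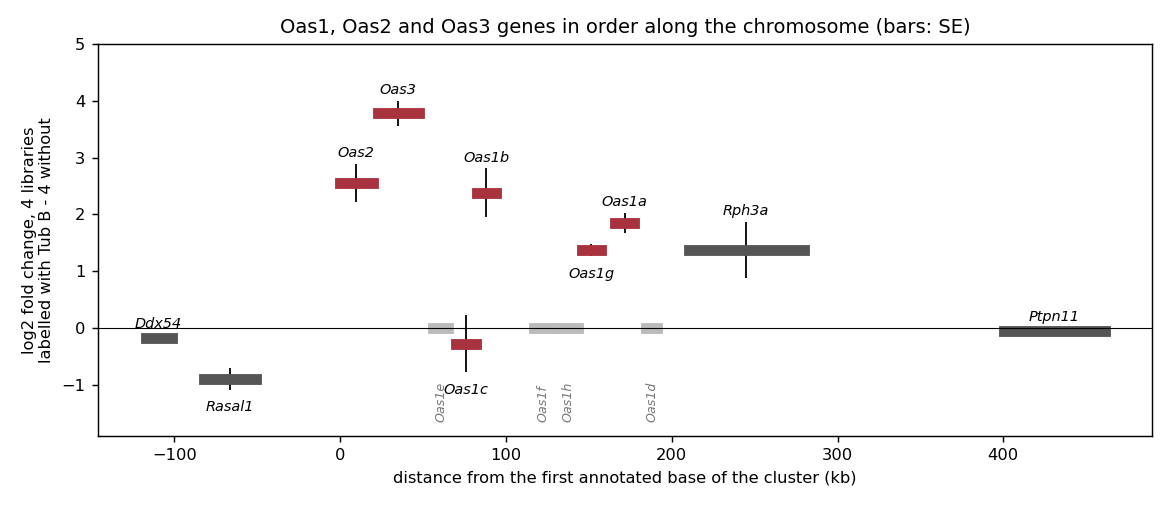
Position of the Oas1, Oas2 and Oas3 genes and their nearest tested neighbours, in kb from the first annotated base of the cluster, against the log2 fold change of the 4 libraries labelled with Tubuloside B over the 4 without (bars, SE). Red bars are family members, dark grey bars neighbours, and light grey bars at 0 are copies with too few counts to test; Oas3 is highest at 3.78 and Oas1c lies at -0.28.

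For each gene, the tested genes with the most similar profile over the 8 libraries were found by the root mean square (RMS) distance of centred log2 CPM. The search covered 8564 named genes outside the family and above a minimum mean level, so genes with few counts were left out of it. The 8 libraries fall into 4 low and 4 high ones for most of these genes, so the distance depends largely on the size of that step, and libraries of a group share their treatment. Oas3 was closest to H2-T23, a non-classical MHC class I gene (RMS 0.0911), and then to Dhx58, which encodes the RNA sensor LGP2 (0.151). Oas1a was closest to Junb, an AP-1 subunit (0.0911), and Bst2, the antiviral protein tetherin (0.102). Oas1g was closest to Tor3a (0.116), Oasl1 to Cd83 (0.165) and Oas2 to Mov10, an RNA helicase with antiviral activity (0.176). Within a distance of 0.5 lay 674 genes for Oas1a and 1653 for Oas1g, but 5 each for Oas1b and Oasl2. The genes named for Oas1a and Oas1g are therefore a few of many with similar profiles. Members with few counts in some or all libraries lay farther from the nearest gene searched. Oasl2 lay 0.385 from Edn1 (endothelin) and 0.419 from Parp14, Oas1b 0.424 from H2-T24, and Oas1c 0.350 from Cdk5rap1. Within the family the closest pair was Oas1a with Oas1g (0.283), followed by Oas1b with Oas2 (0.333) and Oas3 with Oasl1 (0.372).

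A list of other genes that sense double-stranded RNA or act downstream of such sensing was also mostly higher. Over both comparisons, 12 of 15 tested genes of 16 listed were higher and 2 lower (31.7% and 31.5% of all genes tested), with a median log2 fold change of 1.50, against -0.02 for all genes tested. The largest changes were those of Zbp1, a sensor of Z-form nucleic acid (7.79 ± 0.16), Ifih1, which encodes MDA5 (5.05 ± 0.37), Dhx58 (4.04 ± 0.21) and Ddx58, which encodes RIG-I (2.54 ± 0.22). Zbp1 had 10 counts over mock and 8 over LPS_IFNg, against 1870 over TubB and 1669 over LPS_IFNg_TubB. The lower genes, named after their values were seen, were Dhx36 (-0.44 ± 0.08), a helicase, and Mavs (-0.36 ± 0.11), the adaptor of RIG-I and MDA5.

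Of the genes of interferon signalling upstream of the OAS genes, 13 of 17 tested of 20 listed were higher and 1 lower, with a median of 1.34; over all genes tested these shares were 31.7% and 31.5%. Irf1, an interferon-induced transcription factor, rose by 6.86 ± 0.08 on the log2 scale, from 7.40 and 5.91 CPM in mock to 729 and 676 CPM in TubB. Socs1, an inhibitor of JAK signalling, rose by 6.46 ± 0.24, and by 8.66 without mock replicate 1; it had 6 counts in mock and 10 in LPS_IFNg against 605 in TubB and 620 in LPS_IFNg_TubB. Irf7, the amplifier of type I interferon whose translation Oasl1 is known to hold back, rose by 4.82 ± 0.35, and Usp18, which removes ISG15 and dampens receptor signalling, by 3.70 ± 0.36. Irf3 was the lower gene (-0.51 ± 0.10; named after its value was seen). The interferon genes Ifnb1, Ifna4 and Ifng had too few counts to test.

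Other type I interferon-stimulated genes were higher in 23 of 23 tested of 24 listed (31.7% of all genes tested), with a median of 4.41. Rsad2, the antiviral enzyme viperin, rose by 7.38 ± 0.64 and Parp14 by 6.72 ± 0.28. Ifi44 had 673 counts in the 4 libraries labelled with the compound and 6 in the other 4, a 128-fold difference (95% counting interval 58.3 to 349). The fitted fold of Ifi44 was 487 without mock replicate 2 and 386 without LPS_IFNg replicate 1, so its size rests on single low libraries. Ifi44l had 159 counts against 0, at least 60.3-fold higher when the 4 low libraries are given a joint floor of 3 counts. Of the 7 called OAS genes, 6 lay below that median and Oasl2 above it. None of the genes of the 3 lists was called in the comparisons of the stimulus label.

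**Figure D5:**
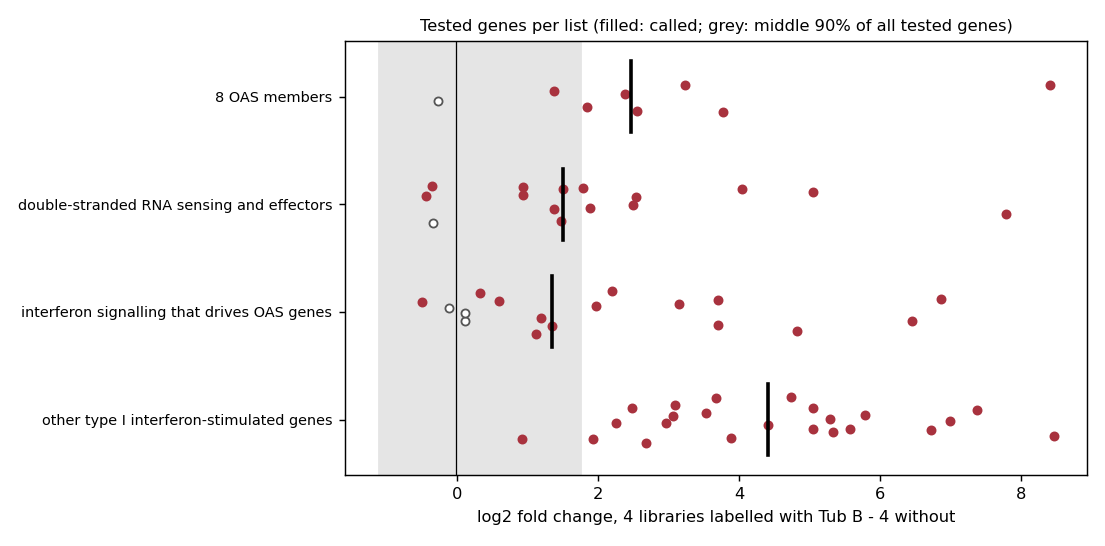
Log2 fold change (4 libraries labelled with Tubuloside B over 4 without) of every tested gene in 4 groups, with a black bar at each median. Filled points were called, the grey band is the middle 90% of all 11081 tested genes, and points above 8 (Oasl2, Ifi44l) rest on 6 and 0 counts in the low libraries, so their fitted size is uncertain. The OAS median lies at 2.47, between those of the signalling genes (1.34) and of the other interferon-stimulated genes (4.41).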

How the data were processed

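Poly(A) RNA of RAW264.7 cells was sequenced in 8 libraries, with a kit that does not keep strand, per the labels' protocols. The authors deposited raw counts per gene and a table of regularised log2 values (rlog), the latter used here only as an alternative and to check the columns. The aligner was STAR 2.7.0, per the submitters' processing notes. Per the file headers, featureCounts 2.0.1 counted paired reads over RefSeq exons of GRCm38.p6, with no option for strand or multi-mapping reads. The exon length deposited beside the counts gave levels per kilobase.

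Counts were tested with edgeR 4.0.16 (TMM factors, filterByExpr at 10 counts and 15 in total, robust quasi-likelihood, group as the only term, all 8 libraries, Benjamini-Hochberg over 11081 genes, called under 0.05). CPM are scaled with TMM factors, and SE were derived from fold changes and F statistics. The fit was tested on simulated counts with 200 changed genes. Each group has 2 libraries, so the residual degrees of freedom are 4. Intervals on counts pool the libraries of a group and cover counting error only, not the spread between replicates. PCR copies also carry no molecular identifiers.

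Copies were compared through shared windows of GENCODE transcripts, and promoter windows came from RefSeq. All 8 genes were named whatever their values, as were Nos2, Il6, up to 4 called genes with the largest change of each pathway list and the 3 closest profiles. The members and the lists were chosen with earlier results of these data known. Further genes of the lists as first fixed are not reported here. Alternatives were RLE factors, other count filters, only the groups compared, a replicate block, a 2-fold minimum, DESeq2 1.42.0, limma-voom and limma on rlog (limma 3.58.1), and leaving out each library. Replicate numbers were not taken to pair the samples, and the labels do not say whether they do.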

Additional observations from a re-analysis of the deposited data

How the results depend on the processing

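The first alternatives were a filter of 1 CPM, no count filter, RLE factors, only the groups compared and limma on rlog. In each of them 7 OAS genes were called in both comparisons of the Tubuloside B label, against 5308 to 5711 genes in all. The rlog fold changes were smaller (0.74 for Oas1b, 2.38 for Oas3 and 3.18 for Oasl2 from mock to TubB). DESeq2 gave 6 and 7, against 4718 and 4815 genes called in all, and limma-voom 6 and 6, against 5733 and 5605. A minimum of 2-fold in edgeR left 4 OAS genes called from mock to TubB, where Oas1a (adjusted p = 0.053), Oas1b (0.293) and Oas2 (0.122) were lost. From LPS_IFNg to LPS_IFNg_TubB it left 5, where Oas1g (0.148) and Oas2 (0.0798) were lost, and over both comparisons together 7. Over all genes it left 832, 835 and 1021, in place of 5671, 5671 and 7002. With 1 library left out at a time, the 7 OAS genes other than Oas1c remained higher in both comparisons of the Tubuloside B label. The smallest log2 fold changes were 1.11 (Oas1b) from mock to TubB and 1.24 (Oas1g) in the other comparison. From mock to TubB the calls of Oas1b and Oas2 did not hold in every such fit. The library left alone in its group is then assumed to vary like the other groups. The settings for genes outside the family and for the Oasl2 count ratios were added after seeing the data. The comparisons of the stimulus label and the interaction gave 0 calls under each of these settings for which they were run; the interaction uses all 4 groups and was not run on only the groups compared.

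The uncalled differences close to 0 changed sign in places. With 1 library left out, Oas1c ran from -0.5855 to 1.14 from LPS_IFNg to LPS_IFNg_TubB (-0.3388 without LPS_IFNg replicate 1). Of the profiles nearest to Oas1c, Ccdc90b ran from -0.0346 to 0.2398 (-0.0167 without LPS_IFNg_TubB replicate 1) and Cdk5rap1 from -0.3361 to 0.1038 (0.0177 without TubB replicate 2). The cause was not tested.

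Deviations of libraries with the same replicate number correlated at -0.052 to 0.15 over the 6 pairs of groups, so the numbers were not taken to pair the samples. With the replicate number as a block, 7 OAS genes were called in each comparison of the Tubuloside B label and 0 in the others, and 5729, 5753 and 7050 genes in all. Depth limits Oas1c, Oas1b and the low libraries of Oasl2, which rest on few counts.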
